A study of Mus musculus with 11 samples.

Results

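Nkx6-2, its paralogue Nkx6-1, the related homeobox genes Nkx2-2 and Nkx2-1, and Inpp5a, a gene whose 3' end overlaps that of Nkx6-2, were followed across 11 RNA-seq libraries of mouse neurospheres. These are 5 of the 53453 gene rows of the deposited table, matched by Ensembl identifier. Nkx6-2 was selected on its TPM difference between the groups in these same libraries, the other Nkx genes as its relatives in ventral patterning, and Inpp5a as a check on shared reads. The differences of the 5 genes between the groups are therefore given as a description, without a test. Of the 5, 4 passed the filter on low values (at least 1 TPM in at least 5 libraries), Nkx6-2 through all of its overexpression libraries, and Nkx6-1 did not.

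The samples were primary neurospheres, that is, neural stem and progenitor cells grown as floating spheres from mouse brain at E15.5. There were 5 libraries from embryos with Klf5 overexpression and 6 from control embryos labelled as untreated. The sources used here give no strain and do not say how, or in which cells, Klf5 was overexpressed. The values are TPM (a level per transcript length, scaled to the library total). TPM retain no read numbers: library depth is unknown, and every error below is the spread among libraries.

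The transcript named in the design separated the groups: Klf5 lay between 53.6 and 93.0 TPM in the 5 overexpression libraries and between 0.371 and 1.29 TPM in the 6 control libraries. Of the 8 neural stem cell markers, all detected in every library, 2 were higher (Vim and Hes1) and 1 lower (Slc1a3) in limma. An unadjusted p under 0.05 was found for 5 of them. The share of all tested genes under that unadjusted threshold was not counted, so such counts here and below have no background beside them. Among all 13549 tested genes, 3.72% were called, 2.29% higher and 1.43% lower. Sox2 stood at 360 ± 64.3 TPM (SD, n = 5) in overexpression spheres and 377 ± 47.5 TPM (SD, n = 6) in control spheres, and Nes at 382 ± 88.7 TPM in overexpression libraries and 342 ± 45.2 TPM in control libraries. Fabp7 and Hes5, radial glial genes that were not called, averaged 2105 and 69.0 TPM in overexpression libraries, against 3596 and 125 TPM in control libraries (adjusted p = 0.0690 and 0.0623 in limma). Listed values summed to 730832 to 821967 TPM in overexpression libraries and 814208 to 846780 TPM in control libraries, a difference that every comparison below carries. Summed markers of microglia were at most 1.99 TPM in any overexpression library and 0.855 TPM in any control library, and those of endothelium at most 0.800 TPM with overexpression and 1.28 TPM in controls. The 9 neuron markers summed to 313 to 418 TPM with overexpression and 352 to 509 TPM in controls. None of the 9 was called in limma, 4 had an unadjusted p under 0.05, none had a log2 fold change above 0 and their median was -0.42. Over all tested genes, 42.4% of log2 fold changes were above 0 and the median was -0.04. Of 3 tested ependymal and choroid plexus markers, the water channel gene Aqp1 was higher (adjusted p = 0.00343 in limma). It had 2.84 TPM with overexpression and 0.242 TPM in controls. The other tested members, Foxj1 and Dynlrb2, had log2 fold changes of -0.57 and -0.28 without a call (adjusted p = 0.200 and 0.896 in limma). The choroid plexus gene Ttr was listed at 0 in every library. Their part in the results below was not tested.

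In the developing neural tube, Hedgehog signalling from the ventral midline induces Nkx6 and Nkx2 homeobox factors, which act mainly as repressors and divide the progenitor zone into domains. Nkx6-1 and Nkx6-2 repress the intermediate genes Dbx1 and Dbx2 and recruit Groucho/TLE corepressors. Later, Nkx6-2 (also called Gtx) is expressed in myelinating oligodendrocytes and Nkx2-2 in maturing oligodendrocyte precursors. Nkx2-1 marks the medial ganglionic eminence, the ventral telencephalic source of many cortical interneurons, and Nkx6-1 is also a factor of pancreatic beta cells.

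Because Nkx6-1 and Nkx6-2 are close paralogues, their coding sequences (GENCODE M21 transcripts, GRCm38) were compared for stretches whose reads would be the hardest to assign. The most alike windows of 180 bases, which overlap the homeobox that encodes the DNA-binding homeodomain, share 147 bases (81.7%), and the longest identical run anywhere in these transcripts is 17 bases, against sequencing of 151 cycles. The closest windows of Nkx2-2 and Nkx2-1 share 80.0% of their bases, with a longest identical run of 26 bases, and no other pair of the 4 genes passes 57.2%. How reads that match several places were assigned is not stated in the sources used.

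The 250 bases before the RefSeq start of Nkx6-2 (chr7:139582798-139583047, minus strand, GRCm38.p6) are shown because this gene, alone of the 4 Nkx genes, had no overlap between the groups. The capitals mark a TAAT, the core letters of many homeodomain sites, whose first base lies 158 bases before the start.
Nkx6-2 upstream: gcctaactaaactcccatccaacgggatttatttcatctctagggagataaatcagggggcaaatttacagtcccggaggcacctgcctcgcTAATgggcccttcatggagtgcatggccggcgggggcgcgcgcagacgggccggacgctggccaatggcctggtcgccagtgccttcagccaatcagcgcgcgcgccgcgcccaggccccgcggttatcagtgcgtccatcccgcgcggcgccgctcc

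Searched on both strands and with overlapping matches allowed, this window held no CACCC and no GGGCGG, the short letter patterns to which Kruppel-like and Sp factors bind. CACCC occurs in 52.0%, GGGCGG in 32.7% and TAAT in 54.9% of 32851 RefSeq windows of the same length. The window of Nkx6-1 held none of the 3 patterns, that of Nkx2-2 held 1 of each, and that of Nkx2-1 held 1 GGGCGG. The first start of Inpp5a had 3 CACCC and 5 GGGCGG in its 250 bases, and its second RefSeq start had none. These matches are letters in short windows and say nothing on whether a factor binds there or elsewhere.

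Nkx6-2 (ENSMUSG00000041309, chromosome 7, 139579376 to 139582797, minus strand) stood at 48.2, 32.2, 56.8, 36.6 and 40.8 TPM in overexpression replicates 1 to 5. In the 6 control libraries its lowest, median and highest levels were 0.566, 1.21 and 2.18 TPM. The lowest overexpression library was thus far above the highest control library, and neither group held a library that reached toward the other. Mean levels were 42.9 ± 9.75 TPM (SD, n = 5) in overexpression spheres and 1.32 ± 0.586 TPM (SD, n = 6) in control spheres, a 32.5-fold ratio that stayed between 29.2 and 37.4 when each library was left out. On the log2(TPM + 1) scale the difference was 4.25 ± 0.21 (SE from the pooled spread). Across all 13549 tested genes, 1.99% lay higher in every overexpression library than in any control library and 1.31% lower. Nkx6-2 was chosen as one of them.

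Within each library, Nkx6-2 exceeded 81.9 to 88.9% of the detected gene rows with overexpression and 21.8 to 35.4% of them in controls. Its level did not follow the order of Klf5 among the overexpression libraries. The highest Nkx6-2 level, 56.8 TPM in replicate 3, stood beside 58.7 TPM of Klf5, while the lowest, 32.2 TPM in replicate 2, stood beside 91.4 TPM of Klf5. In bulk RNA, a change in the number of expressing cells and a change in RNA per cell cannot be told apart.

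**Figure D1:**
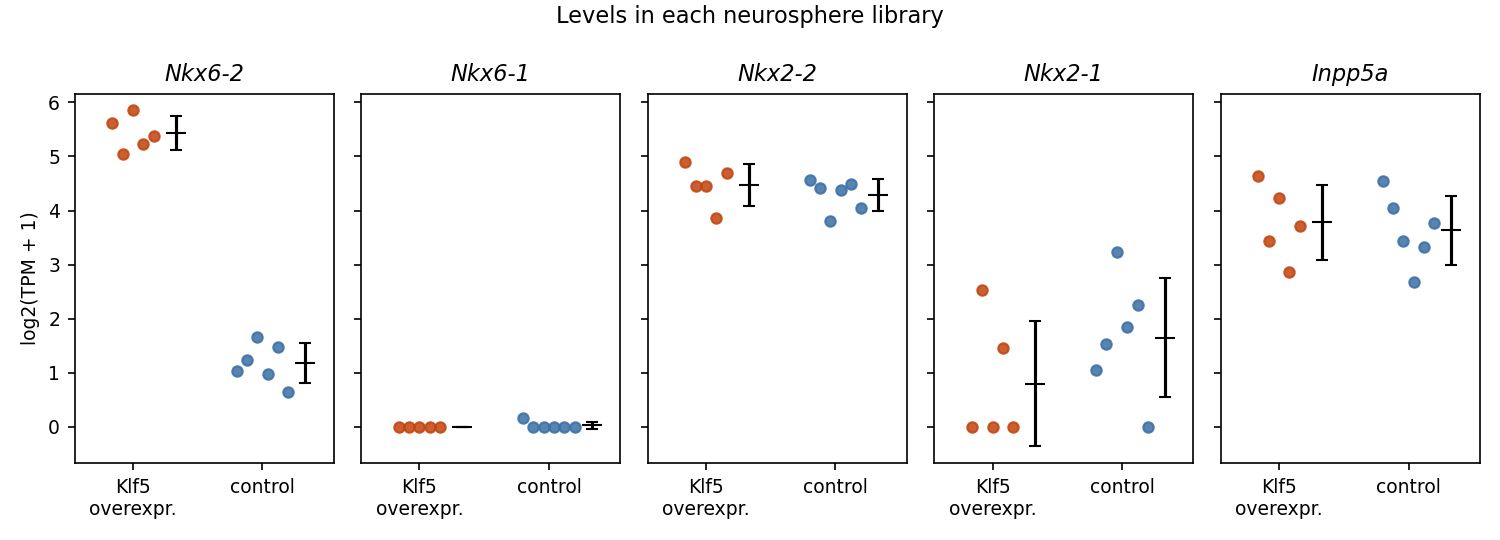
Levels of the 5 genes on the log2(TPM + 1) scale, with 1 point per library, Klf5 overexpression (5 libraries) left and control (6 libraries) right in each panel; bars show the mean and SD. The groups of Nkx6-2 are separated, those of Nkx2-2, Nkx2-1 and Inpp5a overlap, and Nkx6-1 is at or near 0 throughout.

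Nkx6-1 (ENSMUSG00000035187, chromosome 5, 101658139 to 101664996, minus strand), the paralogue that shares ventral patterning roles with Nkx6-2, was listed at 0 in all 5 overexpression libraries. It was also listed at 0 in 5 of the 6 control libraries, and control replicate 1 had 0.128 TPM. The libraries with 32.2 TPM or more of Nkx6-2 thus listed no Nkx6-1. No fold is given for values at 0.

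Nkx2-2 (ENSMUSG00000027434, chromosome 2, 147177546 to 147194243, minus strand), a factor of the most ventral progenitors and of oligodendrocyte differentiation, was present in every library. It had 28.8, 20.8, 20.98, 13.5 and 24.7 TPM in overexpression replicates 1 to 5, and 13.1, 20.0 and 22.8 TPM as the lowest, median and highest of the controls. The ranges overlapped, with 2 of 5 overexpression libraries above the highest control. Means were 21.8 ± 5.65 TPM (SD, n = 5) in overexpression cultures and 18.8 ± 3.74 TPM (SD, n = 6) in control cultures, and the log2 difference of 0.18 ± 0.20 (SE) was smaller than its error.

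The order of Nkx6-2 and Nkx2-2 changed with the group. Nkx6-2 was above Nkx2-2 in 5 of 5 overexpression libraries, at up to 2.71 times its level, and below it in 6 of 6 control libraries, at 0.0364 to 0.167 times. Of the summed TPM of the 4 Nkx genes, Nkx6-2 took 55.8 to 73.0% in overexpression libraries and 3.51 to 9.23% in control libraries. Nkx2-2 took 26.1 to 37.7% with overexpression and 55.3 to 96.5% in controls, while its own level overlapped between the groups. Nkx2-1 took 0 to 8.27% with overexpression and 0 to 35.5% in controls, where it was above Nkx6-2 in 5 of 6 libraries.

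Nkx2-1 (ENSMUSG00000001496, chromosome 12, 56531958 to 56536908, minus strand), the medial ganglionic eminence factor, was low and uneven. It was listed at 0 in overexpression replicates 1, 3 and 5, at 4.78 TPM in replicate 2 and at 1.73 TPM in replicate 4. In controls its lowest, median and highest levels were 0, 2.24 and 8.38 TPM, with the 0 in replicate 6 and the highest level in replicate 3. The groups overlapped, and the log2 difference was -0.86 ± 0.68 (SE). The ratio of mean TPM, overexpression over control, was 0.441, and it became 0.147 without overexpression replicate 2 and 0.698 without control replicate 3.

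The interneuron genes Lhx6, a target of Nkx2-1, and Sst (somatostatin) were low and uneven between libraries. Lhx6 reached at most 0.425 TPM with overexpression, in replicate 2, and 2.81 TPM in controls, in replicate 5. Overexpression replicate 2 was also the highest for Nkx2-1. In controls, Nkx2-1 had 8.38 TPM in replicate 3 and 3.76 TPM in replicate 5, where Lhx6 had 0.683 and 2.81 TPM. Both genes were lowest in control replicate 6, at 0 TPM for Nkx2-1 and 0.0647 TPM for Lhx6. Whether Lhx6 and Nkx2-1 moved together was not tested. Sst stood at 1.90 ± 2.45 TPM (SD, n = 5) in overexpression libraries and 9.85 ± 7.82 TPM (SD, n = 6) in control libraries and gave no call (adjusted p = 0.224 in limma). The 8 GABAergic interneuron markers summed to 11.1 to 35.7 TPM with overexpression and 11.4 to 55.2 TPM in controls. None of their 5 tested members passed in limma (2 at an unadjusted p under 0.05). The log2 fold changes of all 5 were below 0, where 42.4% of all tested genes lay above 0. Calb2 (calretinin), named after its values were seen and not tested because it missed the filter on low values, had its groups the other way round, at 0.737 to 6.34 TPM in overexpression libraries and at most 0.460 TPM in control libraries. The part of these cells in the Nkx2-1 values was not tested.

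The other 10 Nkx genes of the mouse were scarce. Nkx2-4, Nkx2-5, Nkx2-6, Nkx2-9 and Nkx6-3 were listed at 0 in all 11 libraries, and 8 of the 10 stayed under 1 TPM everywhere. Nkx2-3 averaged 1.35 ± 1.18 TPM (SD, n = 5) in overexpression libraries and 0.639 ± 0.359 TPM (SD, n = 6) in control ones, and Nkx1-1 reached 1.23 TPM in 1 overexpression library. None passed the filter, so none was tested. The 6 pancreatic islet markers, checked because Nkx6-1 and Nkx2-2 also act there, summed to at most 0.474 TPM with overexpression and 0.587 TPM in controls.

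Inpp5a (ENSMUSG00000025477, chromosome 7, 139389109 to 139579652, plus strand) encodes a phosphatase that ends inositol trisphosphate signals and runs toward Nkx6-2 from the opposite strand. It stood at 24.1, 9.85, 17.8, 6.29 and 12.2 TPM in overexpression replicates 1 to 5, and at 5.43, 11.3 and 22.4 TPM as the lowest, median and highest of the controls. The ranges nearly coincided, with means of 14.0 ± 6.99 TPM (SD, n = 5) in overexpression spheres and 12.5 ± 5.92 TPM (SD, n = 6) in control spheres and a log2 difference of 0.15 ± 0.40 (SE). That difference changed sign with the library left out, between -0.07 and 0.38.

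The 2 genes overlap by 277 bases at their 3' ends, of which 246 are exonic in both. All 246 lie in the last exon of an annotated Nkx6-2 transcript of the nonsense-mediated decay class, which has 4 exons and 1907 exon bases, and in the last exon of Inpp5a. The protein-coding Nkx6-2 transcript, with 3 exons and 1299 bases, shares no exon base with Inpp5a. One of the library kits named in the protocol keeps strand, but which kit made which library, and whether strand was used in counting, is not stated.

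**Figure D2:**
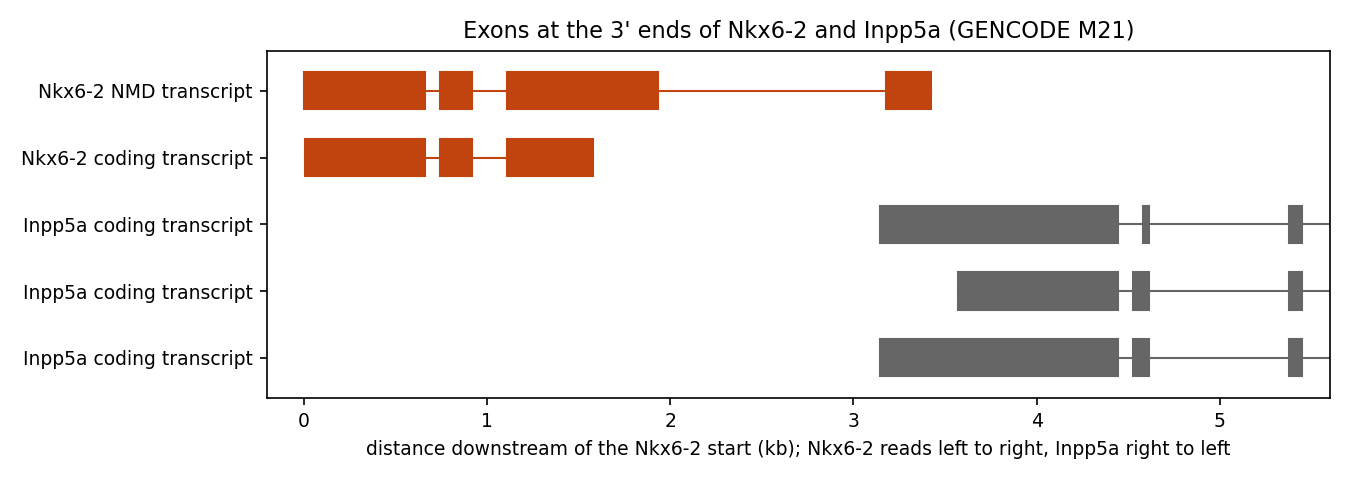
Exons (boxes) of the annotated Nkx6-2 and Inpp5a coding and nonsense-mediated decay (NMD) transcripts by distance from the Nkx6-2 start in kb. Shared exon bases occur in the last exon of the 4-exon Nkx6-2 transcript, and the 3-exon coding transcript ends before the 3' end of Inpp5a is reached.

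The size of a possible read exchange was computed by giving Nkx6-2 all Inpp5a coverage over the 246 shared bases, at an even Inpp5a level and spread over 1907 bases. This amounted to 0.811 to 3.10 TPM in overexpression libraries, or 2.22 to 6.44% of the Nkx6-2 level listed there, leaving at least 30.97 TPM in each. In control libraries it amounted to 0.701 to 2.88 TPM, or 57.9 to 290% of the listed Nkx6-2 level, and exceeded that level in 3 of 6 libraries. Its highest value, 2.88 TPM in control replicate 1, stood beside 1.06 TPM of Nkx6-2. The highest control Nkx6-2, 2.18 TPM in replicate 3, stood beside 1.26 TPM computed. The computed amount thus ran from below to above the listed Nkx6-2 level in control libraries, the denominator of the 32.5-fold ratio. How much of that level came from Inpp5a reads was not tested.

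**Figure D3:**
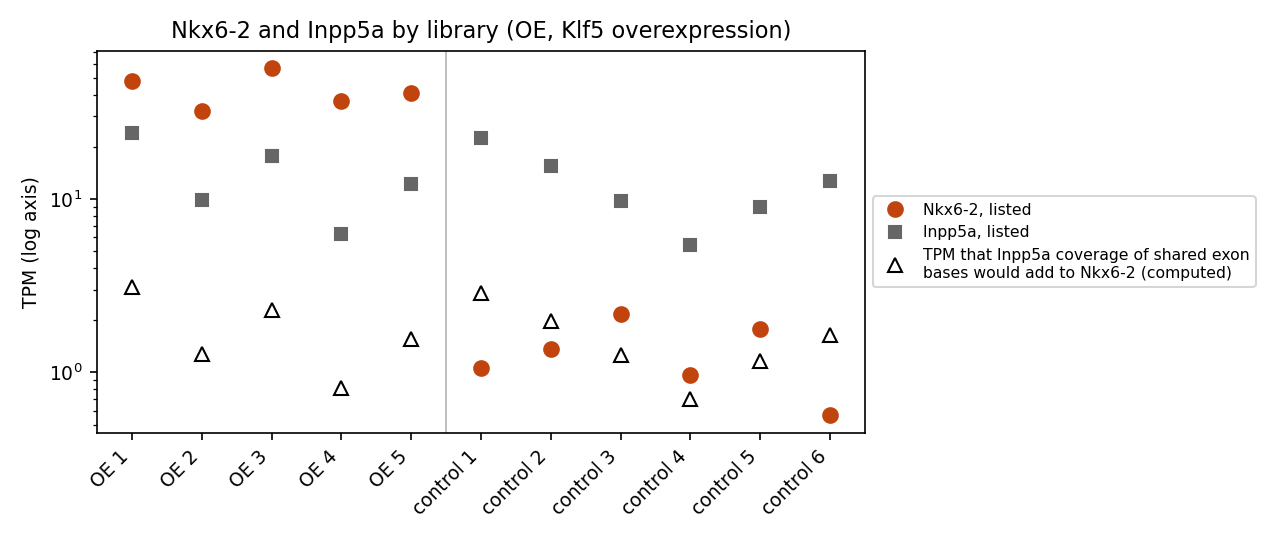
Listed TPM of Nkx6-2 (filled circles) and Inpp5a (squares) in each library on a log axis, with the TPM that even Inpp5a coverage of the shared exon bases would add to Nkx6-2 (open triangles). In the 5 overexpression libraries Nkx6-2 lies well above the triangles, and in the 6 control libraries it lies among them.

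Among the other members, Nkx2-2 shares 278 exon bases with its antisense RNA Nkx2-2os, which reached 0.520 TPM in any overexpression library and 0.345 TPM in any control library. The antisense genes 6430503K07Rik over Nkx2-2 and Gm26973 over Nkx2-1 share no exon base with them and reached at most 1.03 and 0.171 TPM in any library. None of the 3 passed the filter. Nkx6-1 had no overlapping gene among the rows.

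The genes around Nkx6-2 on chromosome 7 gave no call. Apart from Inpp5a, the nearest tested genes, 9 in all and up to 669.9 kb away, were Bnip3, Dpysl4, Stk32c and Pwwp2b toward lower coordinates and Gm4459, Adgra1, Tubgcp2, Zfp511 and Caly toward higher ones. None passed in limma (1 at an unadjusted p under 0.05), beside 3.72% called among all 13549 tested genes, of which 2.29% were higher and 1.43% lower. Their log2 fold changes ran from -0.74 to 0.25 with a median of -0.10. The lowest belonged to the zinc finger gene Zfp511, at 7.04 ± 2.84 TPM (SD, n = 5) in overexpression cultures and 11.9 ± 2.54 TPM (SD, n = 6) in control cultures. Its adjusted p in limma was 0.124, and 0.047 without overexpression replicate 1. Zfp511 overlaps Tubgcp2, a gamma-tubulin complex gene with a log2 fold change of -0.10, and Gm4459 is a processed pseudogene, so the values of all 3 are uncertain where reads are shared.

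**Figure D4:**
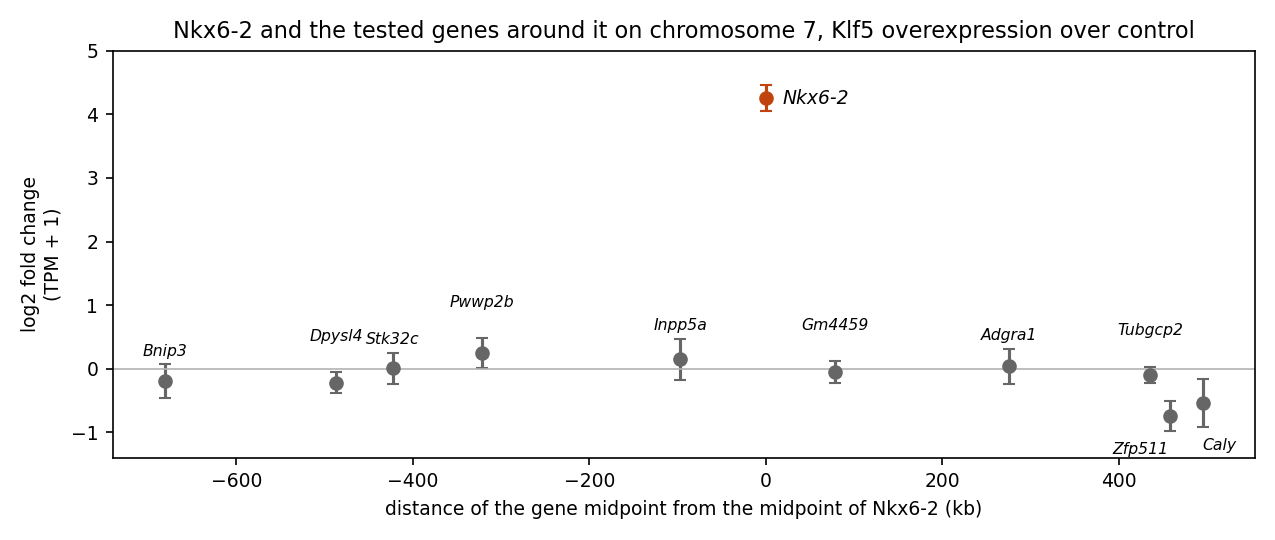
Log2 fold change on the TPM + 1 scale (points, with SE bars), overexpression over control, against distance from Nkx6-2 along chromosome 7 in kb. The 10 neighbours including Inpp5a lie between -0.74 and 0.25, and Nkx6-2 stands at 4.25.

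Genes around the 5 members were then examined in 7 lists holding 108 different genes. The lists cover other Nkx genes, patterning factors, Hedgehog and oligodendrocyte genes, TLE corepressors and partners, and the enzyme class of Inpp5a. Of the 108, 59 could be tested and 3 changed, all higher (5.08%, beside 3.72% of all tested genes). These were Dhh, Gas1 and Cspg4. The median log2 fold change over all tested genes was -0.04.

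Among ventral patterning transcription factors, 0 of 12 tested members passed in limma (3 at an unadjusted p under 0.05), with a median log2 fold change of -0.27. Olig2, which shares the Nkx6 territory and specifies motor neurons and oligodendrocytes, was abundant at 635 ± 63.2 TPM (SD, n = 5) in overexpression libraries, against 684 ± 74.3 TPM (SD, n = 6) in control ones. The floor plate factors Foxa1 and Foxa2 and the motor neuron factors Mnx1 and Lhx3 were listed at 0 in every library. With ribosomal RNA-like and mitochondrial rows left out, 1 member passed.

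The genes on the other side of these boundaries gave no call either. Of the dorsal and intermediate factors, 0 of 6 tested members passed in limma (1 at an unadjusted p under 0.05), with a median of -0.05. Dbx2, which Nkx6 factors repress in the spinal cord, had 7.67, 2.53, 3.93, 2.46 and 1.43 TPM in overexpression replicates 1 to 5 and 2.08, 2.71 and 8.30 TPM as the lowest, median and highest of the controls. Its ranges overlapped almost fully, and Dbx1, the other such target, was listed at 0 in all 11 libraries. Pax6, which opposes Nkx2-2 at a ventral boundary, stood at 8.09 ± 2.44 TPM (SD, n = 5) in overexpression cultures and 8.12 ± 1.46 TPM (SD, n = 6) in control cultures. Lhx2, a cortical progenitor factor with the smallest p of the list, had 29.0 ± 11.1 TPM in overexpression libraries and 42.6 ± 6.44 TPM in control libraries (limma adjusted p = 0.207).

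Of 10 tested Hedgehog pathway genes, 2 rose and 0 fell (4 at an unadjusted p under 0.05), with a median log2 fold change of -0.00. Among all tested genes, 2.29% were called higher and 1.43% lower. Dhh (desert hedgehog), a ligand of the pathway, stood at 88.7, 73.8, 54.05, 65.5 and 66.5 TPM in overexpression replicates 1 to 5, and its controls ran from 17.96 to 45.5 TPM. All 5 overexpression libraries were above the highest control, an order found in 1.99% of all tested genes. The mean difference on the log2 scale was 1.18 ± 0.23 (SE), at an adjusted p of 0.00561 in limma. Testing without any low-value filter ended the call (adjusted p = 0.0527 in limma).

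Gas1, a membrane co-receptor for Hedgehog ligands, had 109, 126, 104, 132 and 82.5 TPM in overexpression replicates 1 to 5 and 46.4 to 68.2 TPM in controls. These ranges did not overlap either, and Gas1 was higher by 0.89 ± 0.14 on the log2 scale (SE; adjusted p = 0.00108 in limma). Of the genes that pathway activity induces, none was called. Ptch1, the receptor and itself a target, stood at 16.4 ± 5.31 TPM (SD, n = 5) in overexpression spheres and 19.7 ± 3.67 TPM (SD, n = 6) in control spheres, Gli1 was at most 0.302 TPM in overexpression and 0.0989 TPM in control libraries and too low to test, and Shh was listed at 0 in every overexpression library and reached 0.132 TPM in controls. The co-receptor Cdon had 13.2 ± 7.23 TPM with overexpression and 25.0 ± 9.15 TPM in controls and was not called, but fell when overexpression replicate 1 was left out (adjusted p = 0.0198 in limma).

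Beside 2.29% of all tested genes called higher and 1.43% lower, 1 of 17 tested oligodendrocyte lineage and myelin genes rose and 0 fell. Of these 17, 3 had an unadjusted p under 0.05, and their median log2 fold change was -0.14. The riser was Cspg4, the NG2 proteoglycan of oligodendrocyte precursors and pericytes, at 92.4 to 149 TPM with overexpression and 35.0 to 55.0 TPM in controls (log2 fold change 1.40 ± 0.15, SE, limma adjusted p = 3.58e-05). Of the mature myelin genes, with which Nkx6-2 is associated, Mag, Mog and Mobp stayed under 0.2 TPM in every library. Pdgfra, which Nkx2-2 represses in maturing precursors, stood at 42.7 ± 18.1 TPM in overexpression spheres and 65.3 ± 26.5 TPM in control spheres, with no call (adjusted p = 0.563 in limma). Cntn1, a contactin gene tied to Nkx6-2 in paranodal myelin, had 39.7 ± 14.3 TPM with overexpression and 50.1 ± 15.0 TPM in controls (limma adjusted p = 0.733).

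The list of TLE corepressors and partners, Tle1 to Tle6 with Hdac1, Hdac2 and Dnmt3a, was expressed in full. Of 9 tested TLE corepressors and partners, 0 passed in limma, with 0 at an unadjusted p under 0.05 and a median of 0.06. Tle4 had 44.7 ± 5.31 TPM (SD, n = 5) in overexpression libraries and 44.1 ± 8.95 TPM (SD, n = 6) in control libraries, and Dnmt3a, a DNA methyltransferase with the smallest p of the list, had 39.9 ± 7.99 TPM in overexpression spheres and 31.7 ± 6.65 TPM in control spheres (limma adjusted p = 0.492). Of 8 tested inositol polyphosphate 5-phosphatases, the enzyme class of Inpp5a, 0 passed in limma (2 at an unadjusted p under 0.05), with a median of 0.18. Synj2, a synaptojanin with the smallest p, had 10.05 ± 5.09 TPM with overexpression and 5.40 ± 2.19 TPM in controls (limma adjusted p = 0.288).

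**Figure D5:**
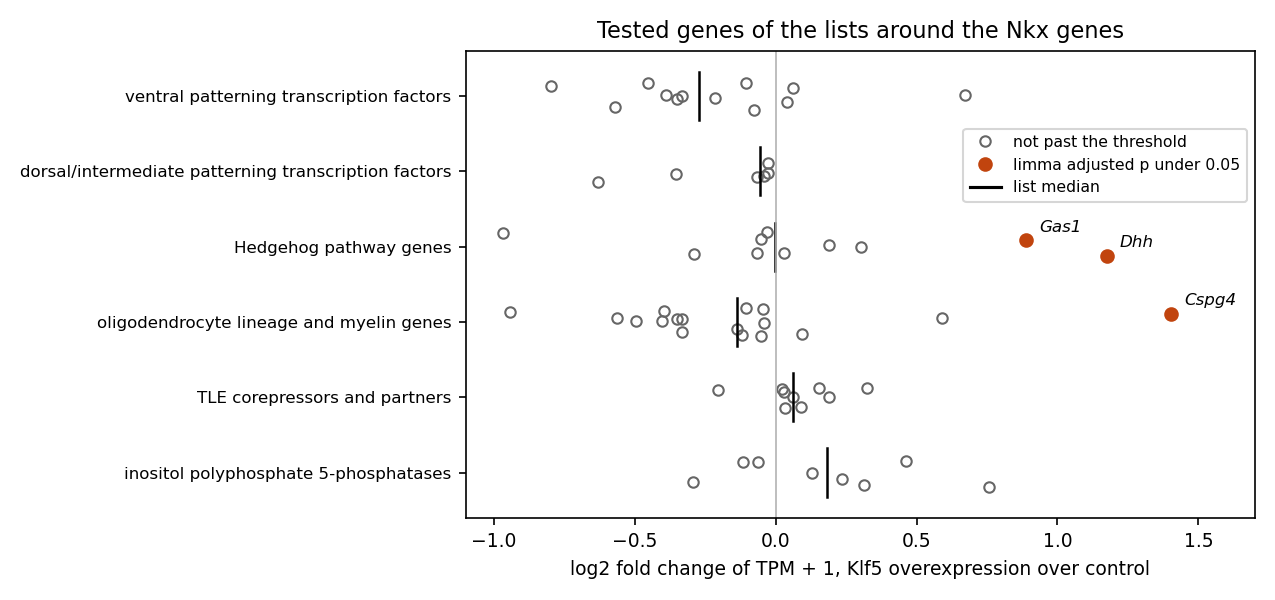
Limma log2 fold changes on the TPM + 1 scale, overexpression over control, for each tested gene of 6 lists (none of the other Nkx genes could be tested); filled points passed an adjusted p under 0.05 and bars mark list medians. Dhh, Gas1 and Cspg4 passed, all to the right of 0.

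The genes whose profile was most like that of Nkx6-2 were ranked by the root mean square difference of log2(TPM + 1) values, each centred on its control mean, over the 11 libraries. The measure mainly matches the size of the group difference, which these genes share by construction. Serpinb1a, a serine protease inhibitor, was nearest with a root mean square difference of 0.534, against a median of 2.93 over all tested genes. It was followed by Anxa2 (0.649), a calcium-dependent membrane-binding protein, and Ptpn6 (0.742), a tyrosine phosphatase. Klk10 (0.757), Lbhd2 (0.783) and Kcnn4 (0.790) came next. For Nkx2-2 the nearest genes were Gm15832, Rpl36-ps12 and Rfesd (0.153 to 0.224), for Nkx2-1 Gm24950, Nr2f2 and Hist1h2ae (0.650 to 0.699) and for Inpp5a Ccdc69, Trmt61a and Pdlim4 (0.340 to 0.365). Nr2f2, a nuclear receptor of ventral and caudal telencephalic progenitors, stood at 6.52 TPM on average with overexpression and 9.99 TPM in controls.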

How the data were processed

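RNA was measured in 5 Klf5 overexpression and 6 control neurosphere libraries. The deposited values are TPM, made by the authors before deposit. The tools named in the submitters' processing notes are DESeq2, HTSeq, StringTie and HISAT2, with GRCm38.p5 as build. Their versions and roles, the annotation release and the strand setting are not stated. TPM carries no depth, and the spread between libraries is the only error given. The protocol counts 6 and 5 embryos, so 1 library was taken to be 1 embryo.

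Of 53453 rows, 53255 matched a symbol. Gene models came from GENCODE M21 (GRCm38) and upstream windows from RefSeq (GRCm38.p6), in which all 5 genes were found. The 13549 genes that reached 1 TPM in 5 or more libraries were tested as log2(TPM + 1) with limma 3.58.1 (R 4.3.3), with a variance trend, no covariate and two-sided p-values, adjusted over all of them by Benjamini-Hochberg and called at 0.05. Fold changes on this scale understate the change of genes near 1 TPM. The members and gene lists were chosen with earlier results of these data known. Named genes are the members, up to 4 called genes per list (or the one with the smallest p), the neighbours and overlapping genes, and the 6 or 3 nearest profiles; other genes are named as background to a list and were chosen after their values were seen. A few items that this rule covers are not reported here. Tle5 was matched by its older symbol Aes. Summaries and figures used Python 3.11.15.

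Each result was recomputed with a pseudocount of 0.1, with the filter dropped or set to 5 TPM, and with trimmed-mean scaling (30% and 5% trims), quantile normalization, removal of ribosomal RNA-like and mitochondrial rows, no variance trend, a replicate block, and leaving out each library.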

Additional observations from a re-analysis of the deposited data

Results flagged for a closer look

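Nkx6-1 in control replicate 1, at 0.128 TPM, stood apart from the other control libraries. Those 5 libraries are all listed at 0, so any level above 0 would have stood apart in this way. It was the 1 such value among 23 groups of values examined for 12 named genes. The criterion nominally marks about 1 in 20 groups by chance, a rate not checked for groups with values tied at 0.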

How the results depend on the processing

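Nkx6-2 was higher under each of the 5 alternatives that could move its difference and in all 11 fits with 1 library left out (log2 difference 4.15 to 4.35). With a pseudocount of 0.1 the log2 differences were 5.00 for Nkx6-2, -0.20 for Nkx6-1 and -2.09 for Nkx2-1, since that scale stretches low values. The differences of Nkx2-2 and Inpp5a moved by less than the spread between libraries in every setting. Across all genes, 194 were lower, against 95 without a filter, 302 with trimmed-mean scaling and 311 with quantile normalization. With each library left out the number of lower genes ran from 123 (without overexpression replicate 2) to 213, with 126 without control replicate 3. Higher genes numbered 310, and 214 to 437 under the other settings.

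In the 7 lists no gene was lower, against 0 to 2 when a library was left out (Cdon and Sox6 without overexpression replicate 1). Hedgehog calls numbered 1 without a filter, oligodendrocyte calls 1 to 2 and neighbour calls 0 to 1 with a library left out, and ventral calls 1 with ribosomal RNA-like and mitochondrial rows removed. Why these calls moved was not tested. Same-numbered libraries were not shown to be paired. Their deviations correlated, across genes, at 0.304 for number 1 and at -0.0398 to 0.0638 for the others, and 1 of 5 correlated best with its own number. With the replicate block, 420 genes were called in place of 504, oligodendrocyte calls numbered 2, and 1 gene in the lists was lower (Sox6, adjusted p = 0.0325 in limma). Quantification of Nkx6-1 and Nkx2-1 is limited by levels near 0.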

Other observations

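Inpp5a, Nkx2-2, Dbx2 and Dlx2 were each highest in replicate 1 of each group. These genes were picked after their values were seen, and the share of all tested genes with this order was not counted. Inpp5a had 24.1 TPM in overexpression replicate 1 and 22.4 TPM in control replicate 1, where the next highest libraries had 17.8 and 15.4 TPM. Dbx2 had 7.67 and 8.30 TPM in the same libraries, where the next highest had 3.93 and 4.07 TPM. Nkx2-2 had 28.8 and 22.8 TPM there, with 24.7 and 21.6 TPM in the next highest libraries. Dlx2 had 5.16 and 6.77 TPM, with 3.24 and 5.04 TPM next. The labels do not say whether libraries of the same number share a litter or a day.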
